A study of Mus musculus with 6 samples.

Results

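The genes described here are 10 that encode core proteins of stress granules, namely *G3bp1*, *G3bp2*, *Caprin1*, *Ddx3x*, *Ybx1*, *Pabpc1*, *Atxn2*, *Tia1*, *Tial1* and *Fmr1*. They were taken by name, through the Ensembl identifiers of GENCODE M21, from 53808 mouse genes measured by RNA-sequencing, and all 10 were among the 17823 genes that averaged 0.5 TPM (reads per length, scaled to one total per library) or more and were tested. *Snd1*, the gene edited in these cells, encodes a protein with nuclease-like and Tudor domains that is itself known to enter stress granules. The rule that lists them uses no measured value, although earlier results of these data were known when the genes were chosen.

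Stress granules are droplets of mRNA and protein that form in the cytoplasm when translation initiation stalls, for example after phosphorylation of eIF2α. G3BP proteins bind the released mRNA and condense with it, and other RNA-binding proteins join through disordered regions or through the mRNA itself. Insulin-producing β cells make large amounts of one secreted protein and control its translation tightly, and the proteins named here also act on mRNA in cells without stress. The RNA values below do not show whether granules formed.

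The 6 libraries came from MIN6 cells, a mouse insulinoma β cell line. All clones carried Cas9 and a lentiviral guide RNA (gRNA) kept by puromycin selection, and each was grown from a single cell. In 3 control clones the guide was directed to *intron 2* of *Snd1*, and in 3 *Snd1* KO clones to *exon 2*. Each clone gave 1 library, so the p-values measure the spread between clones, and a change in the share of cells expressing a gene cannot be told apart from a change in RNA per cell.

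*Snd1* RNA was 113, 119 and 112 TPM in Control 1, 2 and 3 and 14.7, 57.1 and 19.9 TPM in *Snd1* KO 1, 2 and 3. The groups did not overlap, and the KO mean was 26.7% of the control mean. By limma with Benjamini-Hochberg adjustment over all genes tested, its log2 fold change was -2.11 (SE 0.45; adjusted p 0.511). *Snd1* KO 2 kept the highest level of the 3. Leaving that clone out gave -2.67 and an adjusted p of 0.0402.

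Reads on genes ranged from 25865183 in Control 3 to 33055380 in Control 1. Control 3 and *Snd1* KO 1 stood apart from the other clones of their groups. Across the 11368 genes averaging 5 TPM or more, log2(TPM + 1) of Control 1 and Control 2 had a Pearson correlation of 0.980, and that of *Snd1* KO 2 and 3 was 0.974. Control 3 had a correlation of 0.955 with *Snd1* KO 3 but 0.943 with Control 1 and 0.936 with Control 2. *Snd1* KO 1 had correlations of 0.922 and 0.933 with the other KO clones. Below, each of the 10 genes and the counts over gene lists are also given without Control 3, and the counts without both clones. The β cell marker list was expressed in every clone, with 12 of 12 genes tested and a summed level of 47866 to 81569 TPM in control and 52469 to 89386 TPM in KO. The 5 α cell markers summed to 14435 to 20312 TPM in control and 3087 to 8922 TPM in KO, nearly all of it *Ttr*. Delta and PP cell markers summed to at most 2.62 TPM and exocrine markers to at most 0.752 TPM, with *Hhex*, *Cpa1* and *Prss1* at 0. The 6 stromal and immune markers summed to 1.93 to 5.87 TPM in control and 2.45 to 3.18 TPM in KO. The part of these markers in the results was not tested.

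The sequences just upstream of 4 of the genes are shown because 2 of them, *Ybx1* and *Tia1*, had KO clones all above the control clones, *G3bp1* is the granule scaffold gene and varied least between clones, and *Fmr1* varied most in the control clones. Each run holds the 120 bases before the start of the gene in GENCODE M21, 5′ to 3′ on the strand of the gene, from RefSeq windows on GRCm38.p6. The *Ybx1* run is chr4:119294605-119294724 on the minus strand. The *Tia1* run is chr6:86404099-86404218, that of *G3bp1* is chr11:55469565-55469684 and that of *Fmr1* is chrX:68678421-68678540, all on the plus strand. Capitals mark matches to the motifs named in the next paragraph.
Ybx1: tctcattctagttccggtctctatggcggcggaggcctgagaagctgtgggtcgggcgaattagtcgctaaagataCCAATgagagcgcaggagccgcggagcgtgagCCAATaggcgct
Tia1: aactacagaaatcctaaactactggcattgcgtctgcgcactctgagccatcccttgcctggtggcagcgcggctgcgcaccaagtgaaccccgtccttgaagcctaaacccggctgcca
G3bp1: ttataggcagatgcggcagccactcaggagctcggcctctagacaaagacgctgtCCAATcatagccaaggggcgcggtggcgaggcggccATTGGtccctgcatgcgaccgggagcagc
Fmr1: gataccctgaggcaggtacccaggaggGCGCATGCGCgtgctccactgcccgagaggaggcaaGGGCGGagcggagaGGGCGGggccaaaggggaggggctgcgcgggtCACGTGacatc

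RefSeq held 14 start windows for 9 of the 10 genes, each from 250 bases before to 50 bases after a start site. The motifs were searched on both strands, so that a CCAAT box may read ATTGG. *Ybx1* and *G3bp1* each have a pair of CCAAT boxes in the run shown, and *Tia1* has no match there. The *Fmr1* run holds overlapping matches of both strands to the NRF1 core GCATGCGC, a pair of GC boxes (GGGCGG) and an E-box (CACGTG). Over whole windows, the GC box was found in 10 of 14 (35.7% of all 32851 windows), the NRF1 core in 4 (2.71%), the E-box in 4 (7.15%) and CCAAT in 3 (37.4%). TATAAA was found in 2 windows (13.6% of all) and the ETS motif CCGGAAG in 2 (8.86%). The YY1 core AAGATGGCG (1.4% of all), the cAMP response element TGACGTCA (1.79%) and the C/EBP-ATF element TGATGNAA (3.97%) were found in 0. The windows had a median GC content of 64.3% and 26 CpG dinucleotides, beside 52.7% and 7 in all windows. Some windows of 1 gene overlap, and these matches describe letters only.

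The 10 genes differed widely in level. For levels between genes, reads were divided by exonic bases with each base counted once, because the deposited TPM divide by the summed length of all transcripts. On that scale the mean over 6 clones was 801 TPM for *Ybx1*, 385 for *Ddx3x*, 352 for *Pabpc1*, 159 for *Caprin1*, 142 for *G3bp2*, 118 for *G3bp1*, 83.1 for *Tial1*, 48.8 for *Fmr1*, 19.6 for *Tia1* and 17.96 for *Atxn2*. *Ybx1* stood at the 99.3rd percentile of the genes tested and *Atxn2* at the 57.4th. Neighbors in this order kept it in 6 of 6 clones except *Ddx3x* over *Pabpc1* (5 of 6), *G3bp2* over *G3bp1* (5 of 6) and *Tia1* over *Atxn2* (3 of 6). With the deposited TPM, *G3bp1* moved from 6th to 4th, at 183 TPM.

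**Figure D1:**
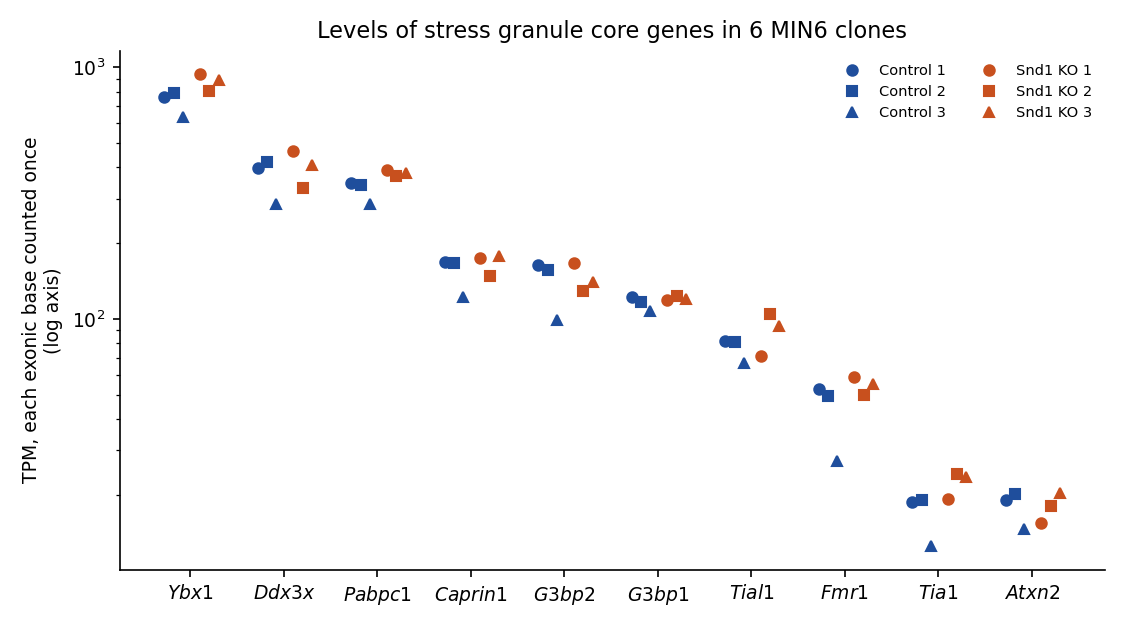
Level of each stress granule core gene in each clone, in TPM with each exonic base counted once, on a log axis, with blue points for control and orange points for Snd1 KO clones and circle, square and triangle for clones 1 to 3. The means run from 801 TPM for Ybx1 to 17.96 TPM for Atxn2, and within a gene the clones lie close together compared with that range.

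In the comparison of *Snd1* KO with control, which asked whether loss of SND1 changed RNA levels, 0 of the 10 genes passed an adjusted p of 0.05 and a 2-fold change by limma. Of all 17823 genes, 1 passed (0.00561%). At an unadjusted p under 0.05, 0 of the 10 and 7.96% of all genes were counted. The log2 fold changes of the 10 ran from -0.00 to 0.39, all of them under 0.5 in size, as for 81.1% of all genes. In this fit with all clones, the 95% interval of each of the 10 lay within a 2-fold change in either direction. The lowest bound was 0.740-fold for *G3bp2* and the highest 1.95-fold for *Fmr1*. The log2 fold change of *Fmr1* depended on the clones, at 0.08 without Control 3 and 0.54 without Control 1. In 3 of the 10, *Ybx1*, *Pabpc1* and *Tia1*, every KO clone was above every control clone, which held for 9.69% of all genes, and in 0 every KO clone was below (4.03%). The count above was 5 of 10 without Control 1 (14.7% of all genes) and 5 of 10 without *Snd1* KO 2 (13.2%). With 3 clones against 3, an exact permutation test cannot give a p under 0.1. Values below are deposited TPM in clone order 1 to 3, and fold changes are on the log2(TPM + 1) scale, which understates changes of the lowest genes.

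Of the scaffold genes, *G3bp1* (ENSMUSG00000018583, chr11:55469685-55504838) encodes the RNA-binding protein that starts granule condensation. It had 190, 181 and 166 TPM in control and 183, 192 and 184 TPM in KO clones. The groups overlapped, and the log2 fold change was 0.06 (SE 0.10), with a 95% interval of 0.886-fold to 1.23-fold and an adjusted p by limma of 0.889. Without Control 3 it was 0.01. *G3bp1* had the smallest residual SD of the 10, 0.07 on the log2 scale, with a coefficient of variation of 6.76% in control and 2.54% in KO.

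Its paralog *G3bp2* (ENSMUSG00000029405, chr5:92052146-92083719), which can replace G3BP1 in granule assembly, had 103, 97.5 and 61.4 TPM in control and 103, 80.6 and 87.2 TPM in KO. Control 3 was at 61.4% of the mean of the other control clones. Its log2 fold change was 0.08 (SE 0.22; adjusted p by limma 0.942) with all clones and -0.15 (adjusted p 0.651) without Control 3, and the sign also turned without *Snd1* KO 1 (-0.02). *Caprin1* (ENSMUSG00000027184, chr2:103762941-103797649), whose product binds G3BP1, had 133, 131 and 96.0 TPM in control and 137, 118 and 140 TPM in KO. Its clones overlapped, and its log2 fold change was 0.14 (SE 0.16; adjusted p by limma 0.821) and -0.01 without Control 3.

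The most abundant of the 10 were a helicase gene and a gene for an mRNA packaging protein. *Ybx1* (ENSMUSG00000028639, chr4:119277981-119294604) encodes a cold-shock domain protein that coats mRNA. It had 567, 582 and 465 TPM in control and 687, 597 and 653 TPM in KO. All KO clones were above all control clones, with *Snd1* KO 2 only slightly above Control 2. The difference gave a log2 fold change of 0.27 (SE 0.14; adjusted p by limma 0.622; exact permutation p 0.1), with an interval of 0.961-fold to 1.51-fold, and of 0.17 (adjusted p 0.571) without Control 3.

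*Ddx3x* (ENSMUSG00000000787, chrX:13280970-13294052) encodes a DEAD-box RNA helicase that helps ribosomes scan structured leaders. It had 427, 450 and 306 TPM in control and 496, 355 and 436 TPM in KO. The highest value was in *Snd1* KO 1 and the lowest in Control 3, the clones that stood apart. Its log2 fold change was 0.13 (SE 0.20; adjusted p by limma 0.883) with all clones, -0.05 without Control 3 and -0.16 without both of these clones.

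Of the poly(A) tail genes, *Pabpc1* (ENSMUSG00000022283, chr15:36595661-36609668) encodes the main cytoplasmic poly(A)-binding protein, often used to mark granules. It had 315, 307 and 258 TPM in control and 349, 334 and 343 TPM in KO. The KO clones were close together, with a coefficient of variation of 2.08%, and all above the control clones. The log2 fold change was 0.23 (SE 0.12; adjusted p by limma 0.625; exact permutation p 0.1), with an interval of 0.966-fold to 1.42-fold, and it was 0.14 (adjusted p 0.558) without Control 3. *Atxn2* (ENSMUSG00000042605, chr5:121711337-121816493), which encodes a partner of PABPC1, had 15.6, 16.4 and 11.8 TPM in control and 12.4, 14.7 and 16.5 TPM in KO. The groups covered nearly the same range, and the log2 fold change was -0.00 (SE 0.18; adjusted p by limma 0.999), with an interval of 0.748-fold to 1.34-fold, and it was -0.14 without Control 3.

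The third group encodes proteins that silence translation of bound mRNA. *Tia1* (ENSMUSG00000071337, chr6:86404219-86433405) encodes a protein with RNA recognition motifs and a prion-like domain, which also acts in splicing. It had 9.91, 10.1 and 6.59 TPM in control and 10.1, 12.8 and 12.4 TPM in KO. *Snd1* KO 1 was nearly level with Control 2, although the groups did not overlap. The log2 fold change was 0.39 (SE 0.20; adjusted p by limma 0.625; exact permutation p 0.1), the largest of the 10, with an interval of 0.943-fold to 1.82-fold, and it was 0.21 (adjusted p 0.580) without Control 3.

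*Tial1* (ENSMUSG00000030846, chr7:128439777-128461717), the paralog of *Tia1*, had 36.3, 35.6 and 29.4 TPM in control and 31.3, 46.5 and 41.3 TPM in KO. *Snd1* KO 1 lay among the control clones and the other KO clones above them. Its log2 fold change was 0.21 (SE 0.17; adjusted p by limma 0.758) with all clones, 0.12 without Control 3, 0.09 without *Snd1* KO 2 and 0.37 without *Snd1* KO 1. *Fmr1* (ENSMUSG00000000838, chrX:68678541-68717963) encodes FMRP, a translational repressor whose loss causes fragile X syndrome. It had 21.4, 20.02 and 10.99 TPM in control and 23.6, 20.3 and 22.3 TPM in KO. Control 3 held 53.0% of the mean of the other control clones, and the control coefficient of variation, 32.4%, was the largest of the 10. The log2 fold change was 0.37 (SE 0.25; adjusted p by limma 0.714) with all clones and 0.08 (adjusted p 0.777) without Control 3.

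**Figure D2:**
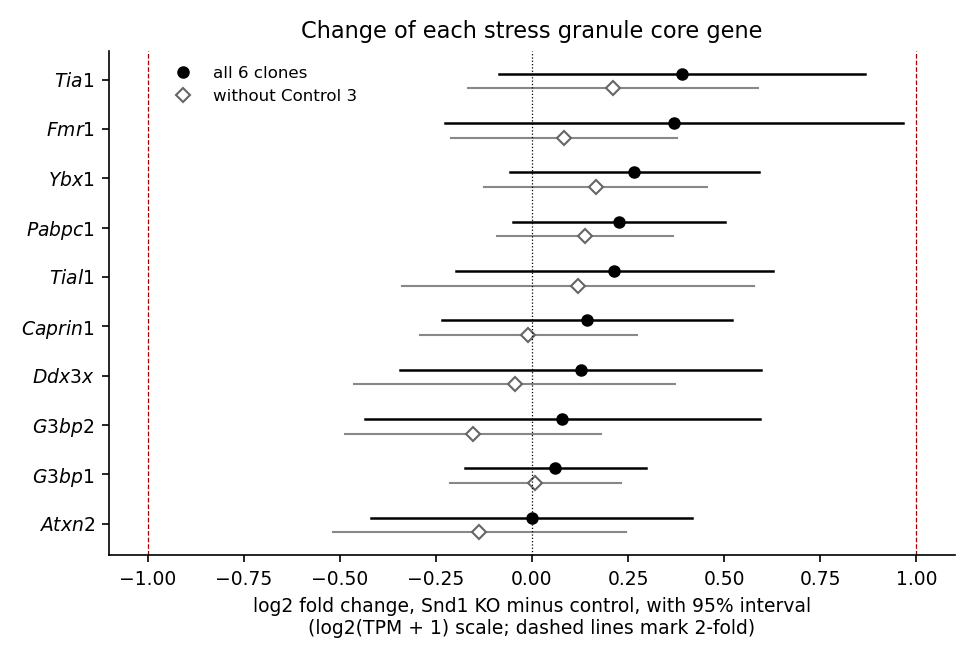
Log2 fold change of each stress granule core gene, Snd1 KO minus control, on the log2(TPM + 1) scale with its 95% interval from limma, with all 6 clones (filled circles) and without Control 3 (open diamonds). No interval with all clones reaches the dashed lines at 2-fold, and most of the values move toward or below 0 without Control 3.

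The plot of fold changes shows that 9 of 10 values were above 0 with all clones (57.3% of all genes), with a median of 0.18 against 0.04 over all genes. Without Control 3, 6 of 10 were above 0 and the median was 0.05, against 0.00 over all genes. *Ybx1*, *Pabpc1* and *Tia1* still had every KO clone above both remaining control clones, as had 17.2% of all genes. Without both Control 3 and *Snd1* KO 1, which left 2 clones a group, *Tial1* joined these 3 (31.7% of all genes) and *G3bp2* had both KO clones below (29.5%). In that fit the lowest adjusted p of the 10 by limma was 0.144, for *G3bp2*, at a log2 fold change of -0.25, and 0 of the 10 passed, against 3.29% of all genes at an adjusted p of 0.05 with any fold and 2.12% with 2-fold. At an unadjusted p under 0.05, 3 of the 10 (*G3bp2*, *Tial1* and *Tia1*) and 27.1% of all genes were counted. Weighting clones by their agreement with their group gave 0 of the 10 at an adjusted p of 0.05, against 12.1% of all genes with any fold and 5.02% with 2-fold, with a lowest value of 0.111 for *Tia1*.

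On the deposited scale, the 10 genes were all lowest in Control 3. The same clone was the lowest of the 6 for 28.9% of all genes tested and for 32.7% of those averaging 5 TPM or more. The median deviation of the 10 genes from their own means was -0.36 in Control 3 on the log2 scale, beside -0.11 for all genes. The highest value of each gene was in a KO clone, in *Snd1* KO 1 for 5, *Snd1* KO 2 for 3 and *Snd1* KO 3 for 2, as it was in 1 of the KO clones for 60.5% of all genes. Summed over the 10 genes, the deposited level was 1818, 1831 and 1412 TPM in control and 2033, 1770 and 1936 TPM in KO.

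Control 3 also had the fewest reads, and mitochondrial genes held 9.17% of its TPM against 13.6 to 16.4% in the other clones. When rescaled without insulin and mitochondrial genes, the 10 genes had a median log2 fold change of 0.23, against 0.09 over all genes. The part of reads and of mitochondrial genes in the low values was not tested. Rescaling the clones by the median ratio over genes left Control 3 lowest for 7 of the 10 genes (18.2% of all genes), and *Pabpc1* was then the only 1 of the 10 with KO clones all above control clones (7.61% of all genes), and 0 had them all below (6.78%).

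**Figure D3:**
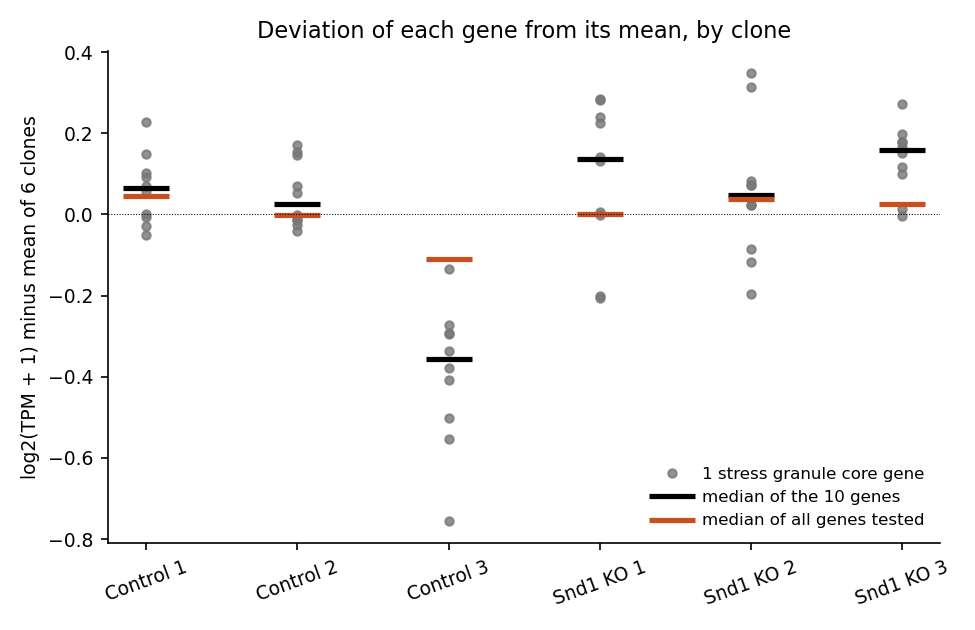
Deviation of each stress granule core gene from its mean over the 6 clones, in log2(TPM + 1), by clone (gray points), with the median of the 10 genes (black bars) and of all genes tested (orange bars). The 10 genes lie below their means in Control 3, at a median of -0.36, on the deposited scale, and the medians of the other clones lie between 0.03 and 0.16.

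Counting error was small beside the spread between clones. The genes had between 1553 reads (*Tia1* in Control 3) and 21144 reads (*Pabpc1* in *Snd1* KO 3), for which counting alone gives an error of 2.54% and 0.688%. The median residual SD of the 10 genes was 0.224 on the log2 scale, against 0.267 for all genes and 0.212 for those averaging 5 TPM or more. Reads shared with other genes could add to some values, since strand use in counting is not given in the sources used here. Genes overlapping *G3bp2* held at most 6.24 TPM, those overlapping *Atxn2* at most 4.85 TPM and a pseudogene of *Ybx1* at most 3.04 TPM. The part of such reads was not tested.

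Within the GENCODE transcript of longest coding sequence, the 10 genes had 3′UTRs of 418 bases (*Ybx1*) to 5170 bases (*G3bp1*). Their median was 2424 bases, against 935 over the 12718 protein-coding genes tested. *Pabpc1*, with 439 bases, and *Atxn2*, with 584, were the other genes below that median of all genes. The median coding length was 1670 bases against 1377, and the median number of exons was 14 against 9.

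The paralogs outside the 10 genes show how closely related genes behaved in the same clones. Of 9 paralogs, 8 were tested, and 0 passed the threshold, with a median log2 fold change of -0.09. KO clones were all above for 1 of them and all below for 1 with all clones (9.69% and 4.03% of all genes), for 1 and 5 without Control 3 (17.2% and 17.9%) and for 1 and 5 without both clones (31.7% and 29.5%). *Ybx2*, a Y-box gene best known from germ cells, had 3.15, 1.25 and 4.10 TPM in control and 5.03, 14.6 and 5.74 TPM in KO. Every KO clone was above the control clones, most of the difference lying in *Snd1* KO 2, and the log2 fold change was 1.24 (SE 0.46; adjusted p by limma 0.594). *Ybx3*, the other Y-box gene, had 110, 109 and 79.2 TPM in control and 83.2, 77.3 and 77.9 TPM in KO. Control 3 lay with the KO clones, and the log2 fold change was -0.30 (SE 0.15; adjusted p by limma 0.611). Without both clones that stood apart, it was -0.49 with an adjusted p of 0.0444, short of 2-fold.

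*Pabpc4*, which encodes a second cytoplasmic poly(A)-binding protein, had 21.6, 22.2 and 18.9 TPM in control and 18.4, 18.5 and 18.6 TPM in KO. Every KO clone was below every control clone, and the log2 fold change was -0.17 (SE 0.11; adjusted p by limma 0.718). The log2 fold changes of *Fxr1* and *Fxr2*, the relatives of *Fmr1*, were -0.05 and -0.12, that of *Atxn2l* was -0.10, that of *Caprin2* was -0.09 and that of *Pabpc1l* was 0.14. *Ddx3y* was below the level tested.

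Ratios between genes, chosen after the values were seen, cancel any scaling of a whole library. Of 10 ratios computed, 9 within gene families and 1 between the partners *Caprin1* and *G3bp1*, 3 had KO clones all above control clones. The ratio of *Pabpc1* to *Pabpc4*, with each exonic base counted once, was 6.05, 5.76 and 5.67 in control and 7.88, 7.52 and 7.69 in KO. The difference was 0.40 on the log2 scale (SE 0.03), and Control 3 lay with the other control clones, so that the difference without it was 0.38. Because *Pabpc1* was higher and *Pabpc4* lower in every KO clone, this ratio had to separate the groups. Its exact permutation p of 0.1, the smallest that 3 against 3 can give, was fixed by that and adds no support. Of all genes averaging 5 TPM or more, 25.7% also had a ratio to *Pabpc4* that was higher in every KO clone.

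The ratio of *Ybx1* to *Ybx3* was 5.58, 5.74 and 6.35 in control and 8.92, 8.34 and 9.05 in KO, a log2 difference of 0.58 (SE 0.07; exact permutation p 0.1), and 0.63 without Control 3. For *Ybx3* as the divisor, 31.3% of genes had higher ratios in every KO clone. The ratio of *Fmr1* to *Fxr1* was 0.785, 0.672 and 0.487 in control and 0.979, 0.803 and 0.816 in KO, a log2 difference of 0.44 (SE 0.22; exact permutation p 0.1), and 9% of genes did the same against *Fxr1*. *Snd1* KO 2 was only slightly above Control 1, and the difference was 0.25 without Control 3. The ratio of *G3bp1* to *G3bp2* ranged from 0.747 to 1.09 in control and from 0.714 to 0.960 in KO, with the highest value in Control 3 and a log2 difference of -0.02 that turned to 0.16 without Control 3. The ratio of *Tia1* to *Tial1* ranged from 0.187 to 0.238 in control and from 0.231 to 0.271 in KO, and the groups overlapped, at a log2 difference of 0.21 and of 0.11 without Control 3. The ratio of *Ybx1* to *Ybx2* ranged from 85.4 to 349 in control and from 30.7 to 103 in KO, a log2 difference of -1.30 (SE 0.81; exact permutation p 0.3) and of -1.75 without Control 3, opposite in sign to the ratio against *Ybx3*. The other ratios also overlapped between groups, with log2 differences of 0.51 for *Fmr1* to *Fxr2*, 0.29 for *Caprin1* to *Caprin2*, 0.10 for *Atxn2* to *Atxn2l* and 0.08 for *Caprin1* to *G3bp1*. Without Control 3 these were 0.24, 0.32, -0.03 and -0.02.

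**Figure D4:**
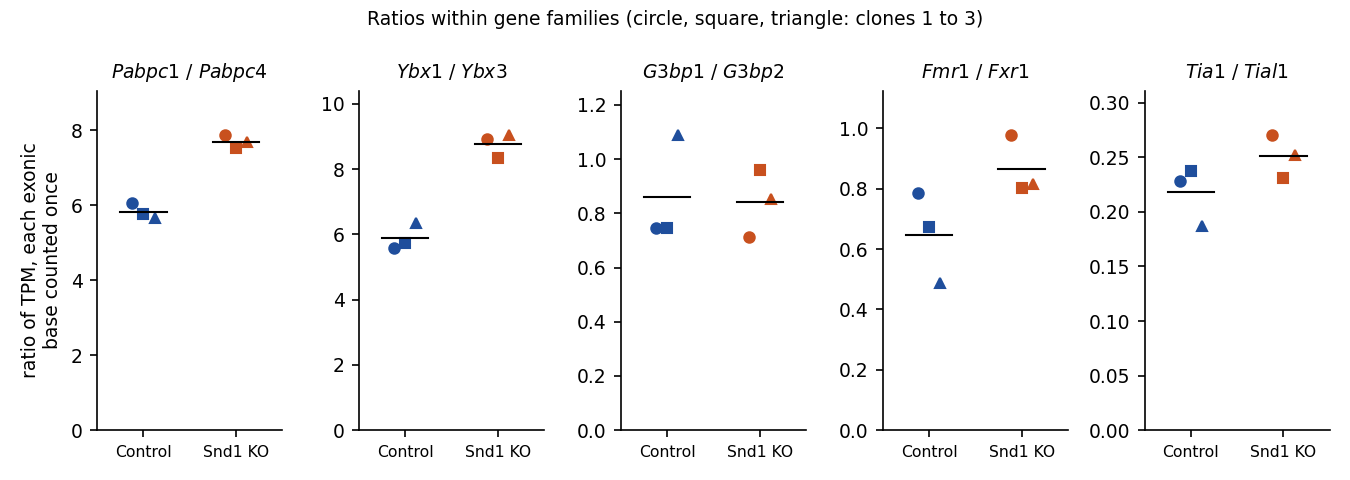
Ratio of TPM, with each exonic base counted once, for 5 pairs of related genes in control (blue) and Snd1 KO (orange) clones, with the group mean as a bar and axes from 0. The Pabpc1 to Pabpc4 ratio (5.67 to 6.05 in control, 7.52 to 7.88 in KO) and the Ybx1 to Ybx3 ratio separate the groups, and the G3bp1 to G3bp2 and Tia1 to Tial1 ratios overlap.

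Genes of the wider stress granule pathway were read from 7 lists, the paralogs among them, with 125 of 130 genes tested. In all 7 lists together 0 genes passed the threshold, and the median log2 fold change was 0.00. KO clones were all above control clones for 8 genes and all below for 4, together 9.6% against 13.7% of all genes. Without Control 3, 12 were all above (17.2% of all genes) and 29 all below (17.9%), with a median of -0.07. Without both clones that stood apart, 23 were all above (31.7%) and 57 all below (29.5%), with a median of -0.08 and 3 genes at an adjusted p by limma under 0.05 (*Ybx3*, *Eif2s3x* and *Bag3*), against 3.29% of all genes. With clone quality weights, 9 of the 125 had an adjusted p by limma under 0.05 with any fold (12.1% of all genes), and *Eif2s3x* alone of these was past 2-fold, at -1.30 (adjusted p 0.0231). The other 8 were *Bag3* (-0.90), *Ybx3* (-0.46), *Zfp36l2* (-0.43), *Usp5* (-0.28), *Taf15* (0.43), *Eif4ebp2* (0.43), *Dcp1b* (0.53) and *Hsph1* (0.91). Control 3 was the lowest clone for 54 of the 125, against 28.9% of all genes.

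Of 17 genes for other granule assembly factors, 2 had KO clones all above control clones (9.69% of all genes) and 0 all below (4.03%), with a median of 0.02. Without Control 3, 2 were all above (17.2% of all genes) and 4 all below (17.9%), and without both clones 2 (31.7%) and 7 (29.5%). *Ubap2*, whose product binds G3BP proteins, had 61.6, 61.2 and 53.1 TPM in control and 62.3, 68.7 and 69.1 TPM in KO, at a log2 fold change of 0.18 (adjusted p by limma 0.675). *Upf1*, a helicase of nonsense-mediated decay, was at 0.10, *Serbp1* at 0.15 and *Zc3hav1* at 0.10. Of 22 genes for other RNA-binding proteins found in granules, 18 were tested, and 1 had KO clones all above (9.69% of all genes) and 0 all below (4.03%), with a median of 0.05. The 1 gene was *Tardbp*, which encodes the splicing factor TDP-43, with 21.5, 19.5 and 17.2 TPM in control and 23.2, 24.1 and 22.2 TPM in KO, at a log2 fold change of 0.25 (adjusted p by limma 0.617). *Taf15*, which encodes an RNA-binding protein, was at 0.25 and *Zfp36l2*, an mRNA decay factor, at -0.31, with overlapping groups that were apart without Control 3 (0.32 and -0.47). In this list without Control 3, 2 genes were all above (17.2% of all genes) and 3 all below (17.9%), and without both clones 4 (31.7%) and 7 (29.5%).

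Processing bodies are granules of mRNA decay factors that dock with stress granules. Of their 18 genes, 2 had KO clones all above (9.69% of all genes) and 0 all below (4.03%), with a median of 0.03. Leaving out Control 3 gave 2 all above (17.2% of all genes) and 4 all below (17.9%), and leaving out both clones 5 (31.7%) and 6 (29.5%). *Dcp1b*, a cofactor of decapping, had 3.53, 3.24 and 4.25 TPM in control and 5.50, 6.11 and 5.23 TPM in KO. The groups were apart with a log2 fold change of 0.50 (SE 0.17), but the adjusted p by limma was 0.585, and 0.0365 with clone quality weights. *Lsm14a* was at 0.16, *Cnot7*, of the deadenylase, at 0.23 and *Ago2*, of the silencing complex, at -0.21.

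Among 18 genes of the eIF2 kinases, phosphatases and subunits that set granule formation in motion, 0 had groups apart (13.7% of all genes), and the median was -0.04. KO clones were all above for 0 and all below for 4 without Control 3 (17.2% and 17.9% of all genes), for 1 and 3 without *Snd1* KO 3 (14.3% and 7.53%) and for 1 and 10 without both clones that stood apart (31.7% and 29.5%). *Eif2s3x*, the γ subunit of eIF2, had 103, 110 and 39.7 TPM in control and 53.9, 32.3 and 41.1 TPM in KO. Control 3 lay within the KO range, and the log2 fold change was -0.87 (SE 0.41; adjusted p by limma 0.607). Without both clones that stood apart, it was -1.52 with an adjusted p of 0.0343 and passed the threshold. *Eif2s2*, *Eif2b5* and *Eif2b1* were at -0.18, -0.13 and -0.12. Of 27 cap-dependent initiation genes, 1 had KO clones all above (9.69% of all genes) and 2 all below (4.03%), with a median of -0.07. The 1 above was *Eif1ax*, at 0.22, and those below were *Eif4b* and *Eif3e*, which was at -0.08. *Eif4b*, whose product helps the helicase eIF4A, was at -0.21, and *Eif4ebp2*, a repressor of eIF4E, and *Eif4g3* were at 0.23 and 0.18. Of the cap-dependent initiation genes, 2 were all above and 5 all below without Control 3 (17.2% and 17.9% of all genes), and 6 and 15 without both clones (31.7% and 29.5%).

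Of 19 genes for chaperones, the VCP segregase with its cofactors, deubiquitinases and kinases that act in granule clearance, 1 had KO clones all above (9.69% of all genes) and 1 all below (4.03%), with a median of -0.01. These counts were 3 and 4 without Control 3 (17.2% and 17.9% of all genes) and 4 and 7 without both clones (31.7% and 29.5%). *Bag3*, a partner of HSP70 that guards granule composition, had 154, 166 and 91.0 TPM in control and 87.9, 83.1 and 82.4 TPM in KO. Every KO clone was below, with Control 3 close to them, at a log2 fold change of -0.64 (SE 0.23; adjusted p by limma 0.589). Without both clones that stood apart, it was -0.94 with an adjusted p of 0.0322, short of 2-fold. *Zfand1*, which recruits the proteasome to granules, had 5.69, 5.67 and 4.82 TPM in control and 6.23, 8.25 and 7.40 TPM in KO, at 0.37. *Hsph1*, a chaperone gene, was at 0.48 and *Usp5*, a deubiquitinase gene, at -0.18, with overlapping groups. Without Control 3 their groups were apart, at 0.69 and -0.25 (adjusted p by limma 0.275 and 0.427), and with clone quality weights the adjusted p was 0.0258 and 0.0474.

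**Figure D5:**
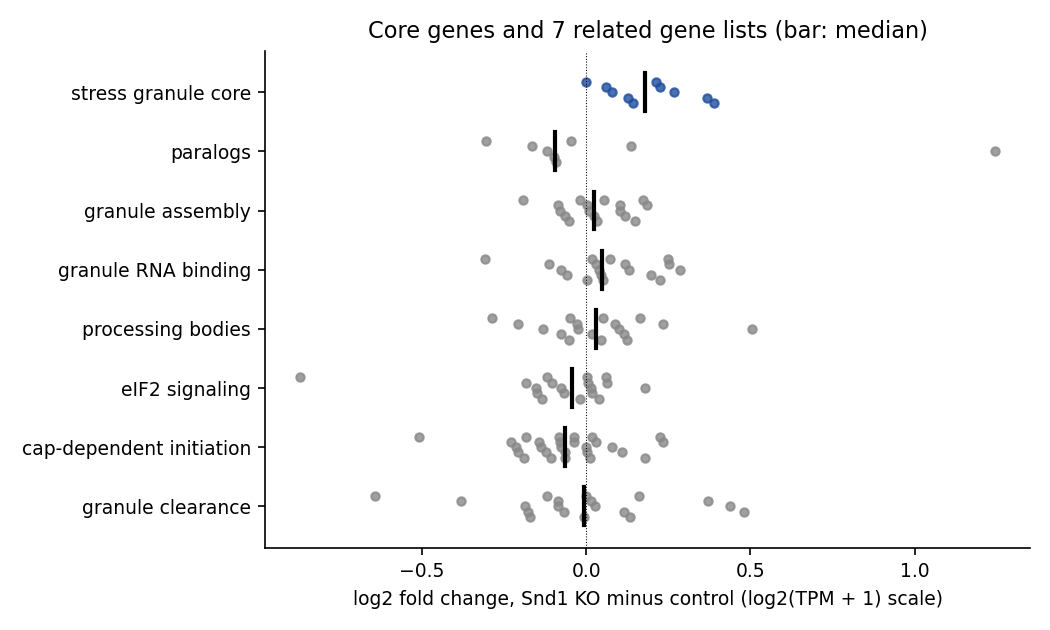
Log2 fold change, Snd1 KO minus control on the log2(TPM + 1) scale, of each tested gene of the stress granule core (blue) and of 7 related lists (gray), with the median as a bar. The median is 0.18 for the core genes and between -0.09 and 0.05 for the other lists, and the outlying points are Ybx2 at 1.24 and Eif2s3x at -0.87.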

How the data were processed

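RNA of 6 MIN6 clones, 3 control and 3 *Snd1* KO by the labels, was sequenced as paired ends, and the authors deposited TPM per gene. The processing notes name FastQC, Trimmomatic, HISAT2, HTSeq, DESeq2 and mm10, without roles or versions. TPM multiplied by the summed exon length of all transcripts (GENCODE M21, 53706 of 53808 identifiers matched) gave whole reads, within 0.01, for 93.5% of values above 0 and for every value of the 10 genes. These reads gave the depth per clone and the levels with each exonic base counted once. Intervals of counting cover counting error only.

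The groups were compared on log2(TPM + 1) in limma 3.58.1 (R 4.3.3), using a trended prior variance, and p-values were adjusted by the Benjamini-Hochberg method over all genes averaging 0.5 TPM or more. Genes were called at an adjusted p under 0.05 and a 2-fold change. Exact permutation tests were two-sided, on group means of log2(TPM + 1), or of log2 ratios for the family ratios. The fit was also run on simulated data with noise drawn independently for each gene and clone. Such data hold no clones that stand apart, so no conclusion on error rates here is drawn from it. The members and gene lists were chosen with earlier results of these data known. The text names the 10 genes, *Snd1*, all paralogs and in each other list up to 4 genes of lowest p, and other names were chosen after values were seen. Some genes of these lists and of the marker lists are not reported here by name. Alternatives changed the pseudocount, filter, scaling, trend, weights, block and clones. Tables were read and plots drawn with Python 3.11.15, numpy 2.4.6, pandas 2.3.3 and matplotlib 3.10.9.

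Clone numbers were not taken as pairs, since no source ties same-numbered clones.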

Additional observations from a re-analysis of the deposited data

How the results depend on the processing

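Over 19 alternatives, 0 of the 10 genes were called under any, and the lowest adjusted p by limma was 0.111 (*Tia1*, clone quality weights). The number of all genes called, 1 as reported, was 0 without the filter, without the trend and with voom on recovered reads, 2 at an adjusted p under 0.1, 895 with clone quality weights and 379 without Control 3 and *Snd1* KO 1, and from 0 to 2 when 1 clone was left out. Voom and leaving out both clones were chosen after seeing the data. The log2 fold change of *Snd1* was -2.31 with weights (adjusted p by limma 0.0195, past the threshold), and from -2.67 to -1.73 when 1 clone was left out. Signs turned for 4 of the 10 genes. *G3bp2* was -0.15 with weights, -0.25 without both clones and from -0.15 (without Control 3) to 0.21 without 1 clone, and -0.02 without *Snd1* KO 1. *Caprin1* was -0.0404 without both clones and from -0.0101 (without Control 3) to 0.22 without 1 clone. *Atxn2* was 0.0480 when rescaled without insulin and mitochondrial genes, 0.0165 with weights and from -0.14 (without Control 3) to 0.10 without 1 clone. *Ddx3x* was -0.0131 with weights, -0.16 without both clones and from -0.0454 (without Control 3) to 0.26 without 1 clone. The median of the granule clearance list, -0.01 as reported, was -0.0824 with quantile normalization, 0.0348 when rescaled without insulin and mitochondrial genes and 0.0427 with weights. It ran from -0.0920 (without Control 3) to 0.0322 (without *Snd1* KO 1) without 1 clone. Scaling by the median ratio turned the medians of granule assembly and processing bodies to -0.0216 and -0.0156, and weights turned that of granule assembly to -0.0243. Without Control 3, the medians of granule assembly, RNA binding and processing bodies turned to -0.05, -0.08 and -0.05, and without Control 1 that of eIF2 signaling turned to 0.02. The cause was not tested, except that the weights, 0.279 for Control 3 and 0.286 for *Snd1* KO 1, reduce the influence of these clones by construction. With a replicate block by clone number, 0 genes were called. Same-numbered clones had correlations of 0.05, -0.12 and -0.07 in their deviations from the group means. Deviations from a mean of 3 clones depend on each other, so these values cannot show whether the numbers pair the samples. With 3 clones a group, the 95% interval of each of the 10 genes with all clones included 0. True differences anywhere inside these intervals remain possible.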
